A study of Apis mellifera with 6 samples.

Results

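The troponin genes of the honey bee (Apis mellifera) were examined in brain RNA-seq of newly-eclosed drones (D), queens (Q) and workers (W). The members are all genes of the RefSeq annotation of assembly Amel_HAv3.1 whose symbol begins with Tpn, and deposited transcripts were assigned to them by exon coordinates. This gave 7 genes, TpnT, TpnI, TpnCI, TpnCIIa, TpnCIIb, TpnCIIIa and TpnCIIIb, of 12289 genes with a transcript, and 43 of 28232 transcripts. There were 2 libraries of each phenotype, each from a pool of 5 brains of bees collected within 1 hour of eclosion. Drones are haploid males, and queens and workers are the diploid female castes. All bees came from the same mother queen, with workers and drones taken from frames as capped brood and queens reared from grafted larvae, and all completed development in an incubator. According to the study's methods, optic lobes were cut away from every brain and hypopharyngeal glands from those of workers.

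Troponin is the calcium switch of striated muscle and sits with tropomyosin on the thin filament. Troponin T anchors the complex to tropomyosin, troponin I holds back the interaction of actin with myosin, and troponin C binds calcium and releases that inhibition. Insects carry several troponin C genes, and in Drosophila these differ in the muscles and stages that use them. The Drosophila genes for troponin T (upheld) and troponin I (wings up A) both produce several isoforms by alternative splicing, including a choice between mutually exclusive exons.

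Queen brains had the highest level of TpnT, TpnI, TpnCI, TpnCIIa and TpnCIIb, at 3.66-fold to 7.08-fold the level in worker brains, and these 5 genes passed the test. Drone brains had lower levels than queen brains for the same 5 genes, between 3.15-fold and 15.9-fold. Drone brains were also lower than worker brains for TpnT, TpnCIIa and TpnCIIb, between 1.44-fold and 2.65-fold. Among the troponin C genes, the shares of TpnCI and of TpnCIIa were separate between phenotypes. Some estimated shares of TpnT and TpnI transcripts also set a phenotype apart, and others overlapped. None of these shares was tested. In these bulk samples, fewer cells of a type and less RNA per cell cannot be told apart.

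TpnT lies on chromosome 6, positions 2064267 to 2079739, on the plus strand, and has 9 transcripts. TpnI lies on chromosome 2, positions 14369041 to 14397205, on the minus strand, with 21 transcripts. TpnCI (chromosome 11, positions 14303381 to 14309559, 4 transcripts) and TpnCIIa (chromosome 11, positions 13515170 to 13517399, 4 transcripts) share a chromosome and the plus strand, with 785981 bases between them. TpnCIIb is on the plus strand of chromosome 13, positions 3251964 to 3255189, with 3 transcripts. TpnCIIIa (positions 6987747 to 6989639) and TpnCIIIb (positions 6991356 to 6993012) are direct neighbours on the minus strand of chromosome 12, with 1716 bases between them and 1 transcript each. Both TpnT and TpnCIIb lie inside a longer gene on the opposite strand. Reads were counted by strand. The antisense lncRNA over TpnT, LOC113218844, held at most 1 count in any library. The gene over TpnCIIb, LOC552209, was read, with 145 and 7 counts in drones, 134 and 158 in queens and 27 and 16 in workers.

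The libraries held between 7685185 and 44373783 estimated counts. Marker lists were read beside the troponin genes, as sums of CPM, counts scaled to a common library size. The 4 neuron genes in the table summed to 720 and 612 CPM in drones, 1203 and 1174 in queens and 786 and 974 in workers. This sum is mostly brp, an active zone protein gene, and by the test 1 of the 4 was lower in drones than in queens, 1 was lower in drones than in workers, and 1 was higher and 1 lower in queens than in workers. The 6 fat body genes summed to 2462 and 2637 CPM in drones, 1590 and 1565 in queens and 1639 and 1856 in workers. This sum is mostly Tsf1, a transferrin gene, and the list did not move as one: 3 genes were higher and 2 lower in drones than in queens, 3 were higher in drones than in workers, and 3 were higher in queens than in workers. Vg, the vitellogenin gene, had 0.60 and 0 CPM in drones, 27.3 and 71.8 CPM in queens and 0.082 and 0 CPM in workers. The 4 photoreceptor genes ranged from 2340 to 2595 CPM in drones, from 563 to 584 in queens and from 4790 to 4805 in workers. That sum is mostly opsin RNA of Lop1 and Blop, and by the test 2 of the 4 were higher in drones than in queens, 1 was higher and 1 lower in drones than in workers, and 3 were lower in queens than in workers. The 6 hypopharyngeal gland genes ranged from 41.7 to 44.4 CPM in drones, from 59.7 to 66.2 in queens and from 19737 to 20861 in workers. The 2 glia genes ranged from 3.64 to 13.7 CPM in drones, from 6.28 to 10.8 in queens and from 3.19 to 3.66 in workers. Of these lists 1 fat body gene was at 0 in drone replicate 2 and in worker replicate 2. None of the 27 names in a list of other sarcomere and muscle genes (actins, myosin chains, tropomyosins, titin-like proteins and others) is used by the gene table, so the amount of muscle RNA in each library could not be read from them. The part of tissue composition in the troponin differences was not tested.

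TpnT, the tropomyosin-binding subunit, had 43.3 and 34.2 CPM in drones, 676 and 578 CPM in queens and 88.5 and 123 CPM in workers. No phenotype overlapped another. TpnT was 15.9-fold lower in drones than in queens (log2 fold change −3.99, standard error 0.17, FDR 6.23e-08). It was 2.65-fold lower in drones than in workers (−1.41, standard error 0.16, FDR 0.000119) and 5.99-fold higher in queens than in workers (2.58, standard error 0.16, FDR 1.78e-06). The difference between drones and workers depended on the transcript read. It was −0.67 on the log2 scale with an FDR of 0.291 when a single transcript, the most abundant, stood for the gene. Transcript 1, tested alone, was lower in drones than in workers (−2.32, FDR 0.0152).

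TpnI, the inhibitory subunit, had 3.90 and 3.74 CPM in drones, 8.57 and 15.8 CPM in queens and 2.78 and 3.94 CPM in workers. Both queen libraries were above all others, while drones and workers overlapped. TpnI was 3.15-fold lower in drones than in queens (log2 fold change −1.66, standard error 0.32, FDR 0.00324) and 3.66-fold higher in queens than in workers (1.87, standard error 0.34, FDR 0.00347). The call between queens and workers depends on 1 library, since without worker replicate 1 the log2 fold change was 1.60 with an FDR of 0.0530. Between drones and workers the log2 fold change was 0.21 with a standard error of 0.36 and an FDR of 0.699. The 2 queen libraries differed more for TpnI than for the other members with over 100 counts in each queen library.

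TpnCI, a gene for the calcium-binding subunit, had 53.4 and 48.4 CPM in drones, 230 and 227 CPM in queens and 55.2 and 67.1 CPM in workers. It was 4.46-fold lower in drones than in queens (log2 fold change −2.16, standard error 0.10, FDR 1.18e-07) and 3.76-fold higher in queens than in workers (1.91, standard error 0.10, FDR 5.38e-07). Between drones and workers its libraries did not overlap, and the log2 fold change of −0.25 (standard error 0.10) did not pass the test (FDR 0.103). On TPM values the same comparison passed, at −0.43 with an FDR of 0.00729.

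TpnCIIa, the second troponin C gene of chromosome 11, had 13.4 and 12.4 CPM in drones, 132 and 133 CPM in queens and 18.1 and 19.4 CPM in workers. Replicates lay close together and the phenotypes were fully separate. TpnCIIa was 10.2-fold lower in drones than in queens (log2 fold change −3.35, standard error 0.10, FDR 5.54e-09) and 7.08-fold higher in queens than in workers (2.82, standard error 0.10, FDR 3.11e-08). It was 1.44-fold lower in drones than in workers (−0.53, standard error 0.11, FDR 0.00474). That last call was lost when only drone and worker libraries entered the fit (−0.50, FDR 0.0812) and when the most abundant transcript stood for the gene (−0.22, FDR 0.438).

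TpnCIIb had 3.19 and 3.22 CPM in drones, 36.9 and 31.5 CPM in queens and 7.78 and 8.44 CPM in workers. The phenotypes did not overlap. TpnCIIb was 10.7-fold lower in drones than in queens (log2 fold change −3.42, standard error 0.19, FDR 4.64e-07) and 2.52-fold lower in drones than in workers (−1.34, standard error 0.19, FDR 0.000598). It was 4.24-fold higher in queens than in workers (2.08, standard error 0.18, FDR 2.35e-05).

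The type III troponin C genes were barely read. TpnCIIIa had 8 and 0 counts in drones, 25 and 40 counts in queens and 1 and 2 counts in workers, and it passed the filter on low counts only through the queens and drone replicate 1. From the summed counts, its level in drones was 0.166 times that in queens (95% exact counting interval 0.0689 to 0.347), which covers counting error only. Drones relative to queens gave −2.93 on the log2 scale in the edgeR fit, with a standard error of 0.92 (FDR 0.0373). This call was lost without any single library other than drone replicate 1, with an FDR of up to 0.320 without queen replicate 2, and with DESeq2 (adjusted p 0.0601). In queens its level was 6.92 times that in workers (interval 2.27 to 34.4), with a log2 fold change of 2.95 that did not pass the test (FDR 0.0826). The drone and worker libraries overlapped, at a ratio of 1.15 with an interval from 0.276 to 6.73. TpnCIIIb had 0 and 0 counts in drones, 3 and 0 in queens and 0 and 1 in workers, and was not tested. A count of 3, used as the floor, corresponds to between 0.0738 and 0.422 CPM in these libraries, so differences in TpnCIIIb were not detectable at this depth.

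**Figure D1:**
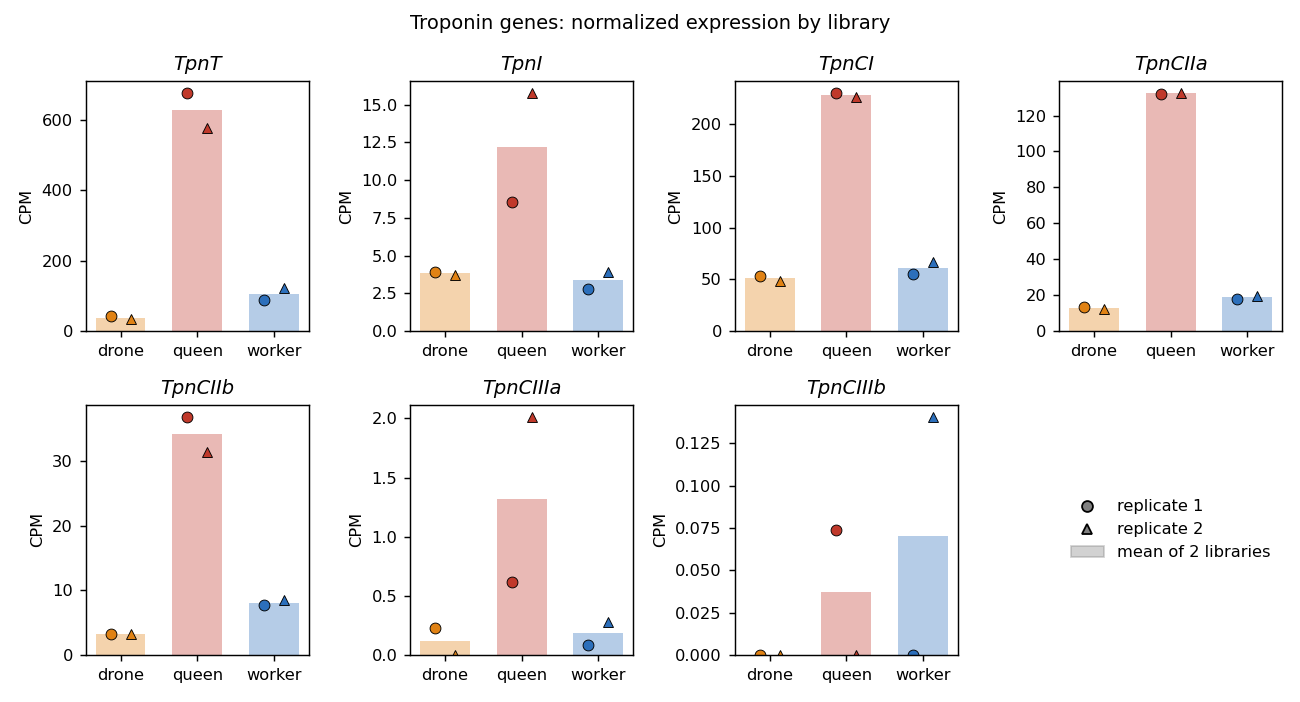
Normalized expression (CPM, linear axes from 0) of each of the 7 troponin genes in drone, queen and worker brains; points are libraries, bars are the mean of 2 libraries, and each gene has its own scale. Both queen libraries lie above all drone and worker libraries for every gene except TpnCIIIb, which had at most 3 counts in a library. How many of all genes show this order was not counted.

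Counted over the family, 6 of the 7 genes were tested. In drones relative to queens, the 6 were called and all were lower, TpnCIIIa with the limits given above, where 30.7% of the 9688 genes tested were called, 16.9% lower and 13.8% higher. The median log2 fold change of the 6 was −3.14, against −0.0031 over all genes tested. In drones relative to workers 3 were called and all 3 were lower, where 28.6% of all genes tested were called, 15.2% lower and 13.4% higher. The median of the 6 was −0.39, against 0.01 over all genes. In queens relative to workers 5 were called and all 5 were higher, where 22.2% of all genes tested were called, 11.9% higher and 10.4% lower. The median was 2.33, against 0.03 over all genes. Since TpnCIIIa passed the filter only through the groups in which it was read, these counts and medians describe the genes tested and not the family as a whole. The joint test of caste called 6, with an FDR between 4.29e-09 for TpnCIIa and 0.0360 for TpnCIIIa, where 38.9% of all genes tested were called. The comparisons share libraries, so a high queen level enters both of the comparisons that hold queens. The 6 were also ranked by log2 fold change from the highest among 9688 genes. In queens relative to workers they ran from 149th (TpnCIIIa, not called) to 471st (TpnI), with TpnCIIa 166th and TpnT 214th. In drones relative to queens they ran from 9216th (TpnI) to 9653rd (TpnT), with TpnCIIb 9634th. In drones relative to workers they ran from 3687th (TpnI) to 9196th (TpnT).

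**Figure D2:**
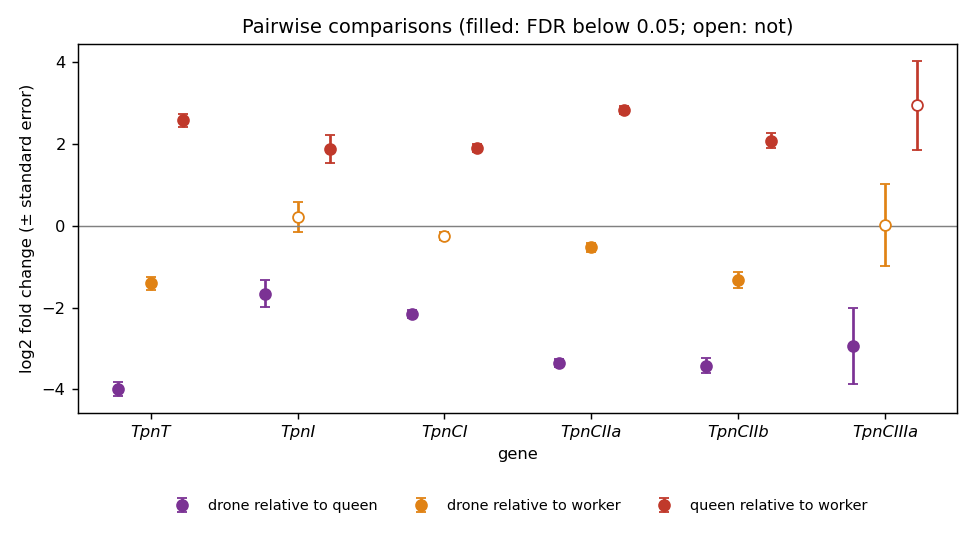
Log2 fold changes (points) with standard errors (bars) of the 6 tested troponin genes in the comparisons of drone with queen, drone with worker and queen with worker; filled points passed an FDR of 0.05 over 9688 genes. Drone-to-queen values lie between −3.99 and −1.66, and queen-to-worker values between 1.87 and 2.95.

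Levels were compared between genes per length, in the authors' TPM. In drones TpnCI was the most abundant gene, at 68.8 and 65.9 TPM, and TpnT (34.9 and 27.9 TPM) overlapped TpnCIIa (33.1 and 31.0 TPM). In queens TpnT came first, at 689 and 638 TPM, followed by TpnCIIa at 426 and 443 TPM and TpnCI at 388 and 401 TPM, with no overlap between neighbours. In workers TpnT (79.8 and 113 TPM) overlapped TpnCI (84.5 and 97.5 TPM), and TpnCIIa followed at 52.7 and 56.8 TPM. TpnCIIb was lower than these in every library, at 6.88 and 6.31 TPM in drones, 104 and 91.1 TPM in queens and 19.4 and 21.1 TPM in workers. TpnI was lower again, at 3.73 and 3.54 TPM in drones, 12.3 and 26.4 TPM in queens and 3.06 and 4.07 TPM in workers. The order of TpnCI and TpnCIIa in queens was thus the reverse of that in drones and in workers.

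The troponin C genes summed to 109 and 103 TPM in drones, 918 and 939 TPM in queens and 157 and 176 TPM in workers. TpnCI made up 63.1% and 63.8% of this sum in drones, 42.2% and 42.7% in queens and 53.9% and 55.4% in workers. TpnCIIa made up 30.3% and 30.1% in drones, 46.3% and 47.2% in queens and 33.6% and 32.2% in workers. In both genes the shares of the phenotypes were separate by more than the difference between replicates. TpnCIIb held 6.31% and 6.11% in drones, 11.3% and 9.70% in queens and 12.4% and 12.0% in workers, lowest in drones. The ratio of TpnT to summed troponin C, in TPM, was 0.320 and 0.270 in drones, 0.751 and 0.679 in queens and 0.509 and 0.643 in workers. With 2 libraries against 2, an exact two-sided permutation test cannot give a p-value below 0.333, so shares and ratios are given without a test. The ratio of TpnT to TpnI was 9.35 and 7.87 in drones, 55.8 and 24.2 in queens and 26.1 and 27.8 in workers, so drones were below both female castes, whose values overlapped.

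**Figure D3:**
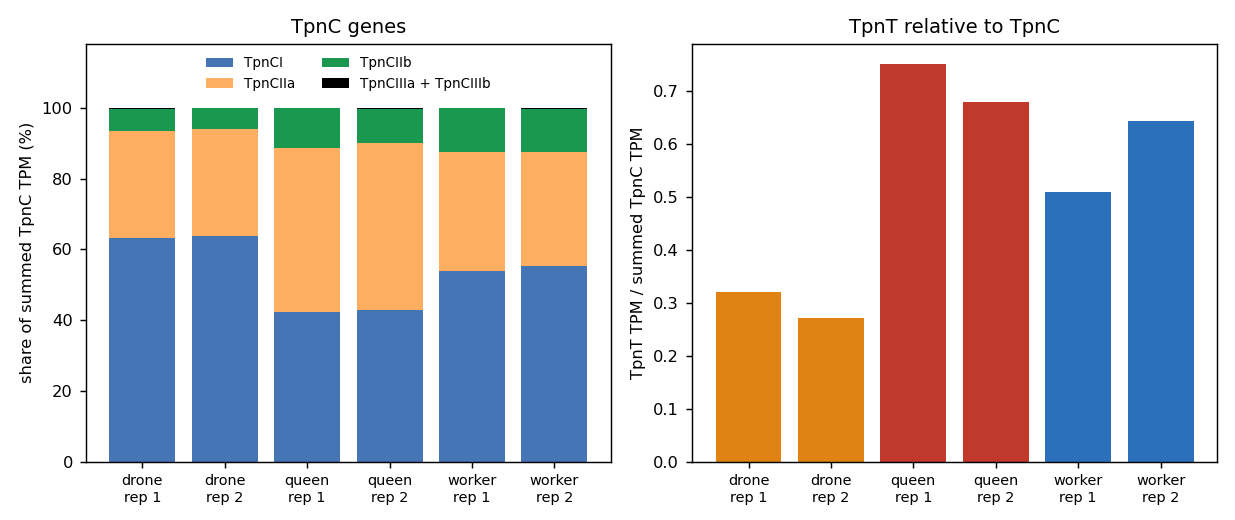
Left, the share (%) of each gene in the summed TPM of the troponin C genes in each library; right, the TPM of TpnT divided by that sum. TpnCI makes up between 42.2% and 42.7% in queen libraries, against 53.9% or more in the others, and the ratio is lowest in the 2 drone libraries, at 0.320 and 0.270.

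The transcripts of TpnT and TpnI were examined next, numbered in the order of the deposited coordinates. Transcripts of a gene share most of their exons, and the estimated counts of each are the division of shared reads made by Kallisto, whose uncertainty did not enter the tests. Over the family, 20 of the 43 transcripts passed the filter on low counts. In drones relative to queens 1 was higher and 10 were lower, where 11.2% of the 17001 transcripts tested were called, 5.07% higher and 6.15% lower. In drones relative to workers 1 was higher and 2 were lower, where 10.5% were called, 5.46% higher and 5.06% lower. In queens relative to workers 9 were higher and 1 was lower, where 5.99% were called, 3.31% higher and 2.68% lower. Among the calls are TpnT transcripts 6 and 7 and TpnI transcript 18, each at 0 counts in a phenotype. They passed the filter only through the groups in which they were read. These counts therefore describe the transcripts tested and not the family as a whole.

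Just before its last exon, TpnT has a choice between a pair of exons of 79 bases each, of which every annotated transcript carries exactly 1. The upstream one (chromosome 6, positions 2077168 to 2077246, Amel_HAv3.1) is carried by transcript 1 alone, and the downstream one (positions 2078056 to 2078134) by the other 8 transcripts. Transcript 1 held 15.0% and 10.8% of the TpnT counts in drones (95% Wilson intervals 13.3% to 16.9% and 8.01% to 14.8%), 27.4% and 27.0% in queens (26.9% to 28.0% and 26.1% to 27.8%), and 28.8% and 24.6% in workers (26.2% to 31.6% and 21.8% to 27.5%). These intervals cover counting error only and take every count of the gene as informative, so they are too narrow. Both drone libraries were below all others, and queens and workers overlapped. Its level was lower in drones than in queens (log2 fold change −4.94, standard error 0.34, FDR 0.00200) and than in workers (−2.32, standard error 0.31, FDR 0.0152), and higher in queens than in workers (2.63, standard error 0.30, FDR 0.0153).

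Near its 5′ end TpnT has short optional exons of 31, 24 and 18 bases. The 31-base exon (positions 2068303 to 2068333) was in transcripts holding 64.6% and 69.7% of the counts in drones, 46.5% and 52.4% in queens and 29.0% and 57.6% in workers. Drones were highest, and the worker replicates were too far apart to separate workers from queens. The 18-base exon (positions 2072545 to 2072562) was in 88.9% and 80.5% of the counts in drones, 88.1% and 91.1% in queens and 94.9% and 96.3% in workers. Workers were highest here, and drones and queens overlapped. The 24-base exon was at 31.3% and 34.9% in drones, 26.1% and 35.1% in queens and 14.0% and 25.0% in workers. Both worker values were lowest, but the replicates of workers and of queens lay further apart than the nearest worker and queen values.

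Transcript 6 of TpnT, which starts at an inner first exon and lacks all 3 optional exons, had 139 and 46.5 estimated counts in drones, 858 and 210 in queens and 0 in both worker libraries. Set against a floor of 3 counts over the worker libraries, it was 26.7-fold higher in drones and 114-fold higher in queens than in workers. The edgeR fit gave log2 fold changes of 9.54 (FDR 0.0156) and 11.3 (FDR 0.0157). Transcript 6 passed the filter on low counts only through drones and queens, the groups in which it was read. The floor covers counting error only. A 0 here is Kallisto's division of shared reads, so folds against the floor are not lower bounds. By these estimates transcript 6 was higher in drones than in workers although the gene as a whole was lower. Transcript 7 starts at the same exon, holds the 18-base exon and ends earlier; it was singled out after its values were seen, since it stayed under 10% of the gene in every library. It had 0 counts in both drone libraries, 1048 and 455 in queens and 88.3 and 85.5 in workers. Against the same floor over the drone libraries, it was 371-fold lower in drones than in queens and 134-fold lower than in workers. The edgeR fit gave log2 fold changes of −12.0 (FDR 0.00346) and −10.6 (FDR 0.00549). Transcript 7 passed the filter only through queens and workers, the groups in which it was read. Of transcripts 6 and 7, the only ones with this first exon, drones held only transcript 6 and workers only transcript 7. The split between them is Kallisto's estimate, and the use of this start as a whole was not tested. Transcript 5, with the 31-base exon, had 507 and 115 counts in drones, 5598 and 1985 in queens and 161 and 284 in workers, and was lower in drones than in queens (log2 fold change −3.11, standard error 0.57, FDR 0.0327). Transcript 8, with all 3 optional exons and the short last exon, had 476 and 115 counts in drones, 6887 and 3753 in queens and 152 and 218 in workers. It was lower in drones than in queens (−3.75, standard error 0.44, FDR 0.00947) and higher in queens than in workers (3.09, standard error 0.43, FDR 0.0250). Transcript 9 had 142 and 0 counts in drones, 2378 and 889 in queens and 313 and 37.5 in workers, and passed no comparison.

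TpnI has 4 mutually exclusive exons of 101 bases each, an optional exon of 18 bases upstream of them and several alternative last exons. Only 2 of its 21 transcripts passed the filter, and 8 rounded to 0 counts in every library. The gene had 137 and 36 counts in drones, 348 and 313 in queens and 34 and 28 in workers, so its shares in workers and in drone replicate 2 are coarse. The first of the exclusive exons (chromosome 2, positions 14389774 to 14389874) was in transcripts holding 42.2% and 91.1% of the counts in drones, 63.8% and 80.9% in queens and 84.8% and 79.0% in workers. It held most of the counts in every library except drone replicate 1, and the phenotypes overlapped.

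The 18-base exon of TpnI (positions 14391355 to 14391372) was in transcripts holding 7.23% and 0% of the counts in drones, 39.1% and 46.6% in queens and 0% in both worker libraries. In queens the 95% Wilson intervals were 34.1% to 44.3% and 41.2% to 52.2%. In drone replicate 2 it was 0 of 36 counts, and in workers 0 of 34 and 0 of 28 counts. A floor of 3 counts would be a share of 8.33%, 8.82% and 10.7%. These limits and intervals take every count of the gene as informative, although only reads at this exon or its junctions tell the forms apart. The data thus allow wider ranges. The last exon nearest to the 5′ end, carried by transcript 21 alone, took 2.53% and 0% of the counts in drones, 24.7% and 41.4% in queens and 0% in both worker libraries. The queen libraries were above all others for both features.

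Transcript 18 of TpnI, with the first exclusive exon, no 18-base exon and the middle last exon, had 48.8 and 32.9 estimated counts in drones, 0 in both queen libraries and 28.9 and 22.2 in workers. Against a floor of 3 counts over the queen libraries, it was 36.8-fold higher in drones than in queens and 53.3-fold lower in queens than in workers. The edgeR fit gave log2 fold changes of 8.64 (FDR 0.0214) for drones relative to queens and −8.79 (FDR 0.0328) for queens relative to workers. Transcript 18 passed the filter only through drones and workers, the groups in which it was read, so these calls carry that selection. Both differences ran opposite to those of the gene as a whole. The 0 of transcript 18 in queens is Kallisto's division of reads shared with other transcripts, so these folds are not lower bounds. Transcript 19 differs from transcript 18 by the 18-base exon alone. It had 4.30 and 0 counts in drones, 134 and 124 in queens and 0 in both worker libraries. Transcript 21, with the nearest last exon, had 3.46 and 0 counts in drones, 86.0 and 130 in queens and 0 in both worker libraries. Neither of these passed the filter. In a fit of the 23631 transcripts that remained with no filter beyond 1 count, 35 of them from troponin genes, chosen after seeing the data, transcript 19 gave an FDR of 0.0979 for drones relative to queens and 0.0947 for queens relative to workers. In that fit transcript 21 gave 0.107 and 0.109, and transcript 18 stayed below the threshold, at 0.0267 for drones relative to queens and 0.0398 for queens relative to workers. Transcript 17, with the fourth exclusive exon, had 23.7 and 0 counts in drones, 94.2 and 25.5 in queens and 0 in both worker libraries, and passed no comparison. Transcripts 1, 2, 15 and 16 each reached 10% of the gene in a single library that held at most 24.3 counts of them.

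**Figure D4:**
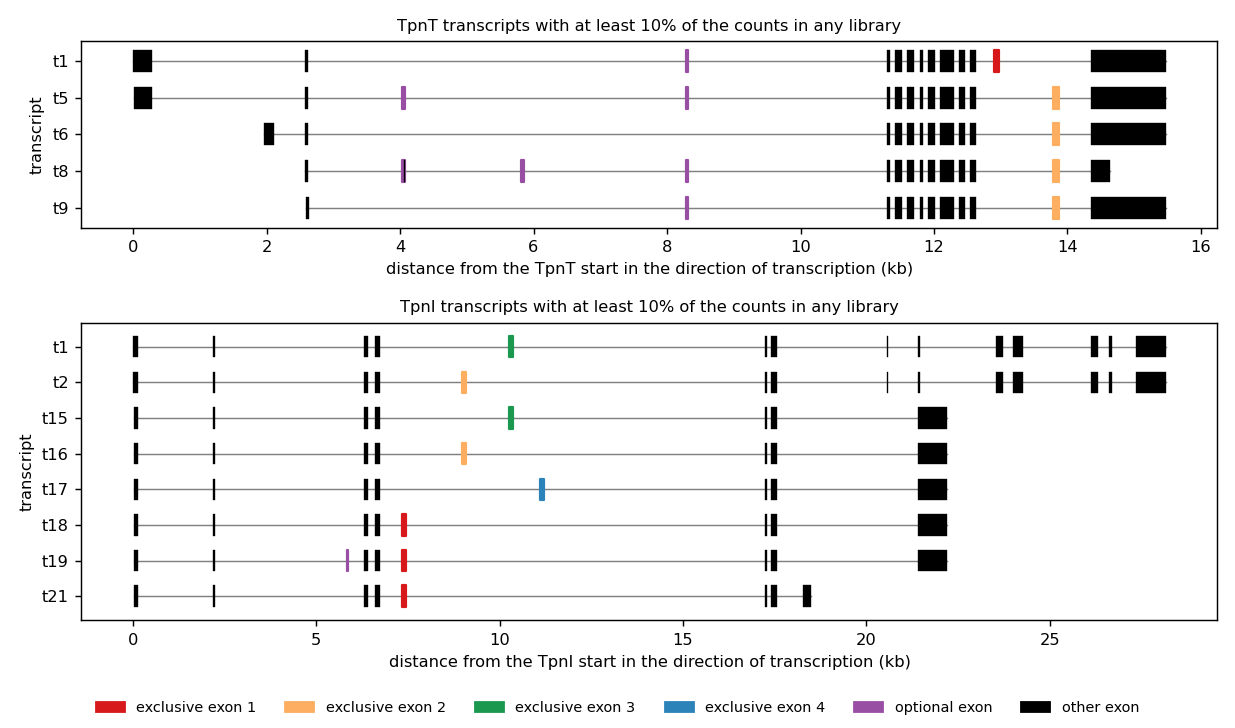
Exon structure of the TpnT and TpnI transcripts with at least 10% of the gene's estimated counts in any library, drawn by distance from the gene's start in kb; boxes are exons (the shortest widened to be visible), lines are introns, and colours mark the mutually exclusive and the optional exons. TpnI transcripts 18 and 19 differ by the 18-base optional exon, and transcript 21 ends earlier than either.

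**Figure D5:**
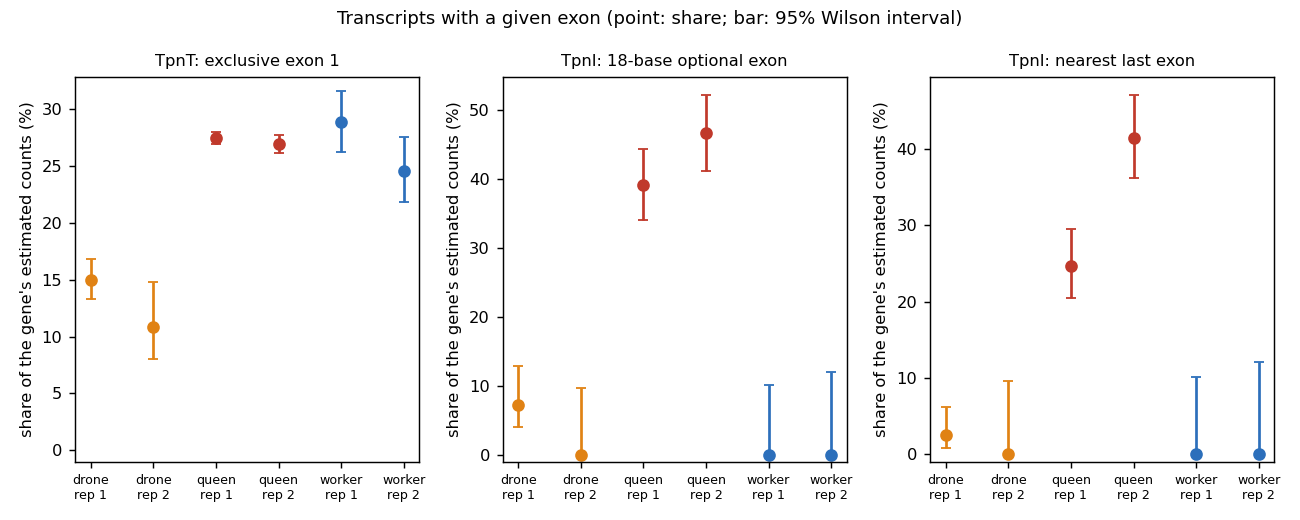
Share (%) of the gene's estimated counts on transcripts with exclusive exon 1 of TpnT, the 18-base exon of TpnI and the nearest last exon of TpnI in each library, with 95% Wilson intervals as bars. The intervals take every count of the gene as informative and are too narrow. Drone libraries are lowest for TpnT, at 15.0% and 10.8%, and queen libraries are highest for both TpnI features, at 24.7% or more.

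The troponin C genes differ between transcripts mainly in the first exons. Transcript 1 of TpnCI held at least 80.5% of its counts in every library, and transcript 2, with a later start, held 7.57% and 5.96% in drones, 15.2% and 18.8% in queens and 10.6% and 7.32% in workers. Transcript 1 was lower in drones than in queens (log2 fold change −1.96, standard error 0.15, FDR 0.00288) and higher in queens than in workers (1.77, standard error 0.15, FDR 0.00689). Transcript 2 gave −3.40 (standard error 0.31, FDR 0.00438) for drones relative to queens and 2.85 (standard error 0.30, FDR 0.0123) for queens relative to workers, so both starts moved in the same direction. In TpnCIIa, transcript 2 held between 41.2% and 63.4% of the counts of a library and transcript 4 between 26.5% and 58.8%, with overlap between phenotypes. Both were lower in drones than in queens, with FDRs of 0.00152 and 0.0103, and higher in queens than in workers, with FDRs of 0.00314 and 0.0429. Transcript 3 of TpnCIIa, at most 12.2% of the gene, passed no comparison. In TpnCIIb, transcript 1 held 41.1% and 51.9% of the counts in drones, 61.2% and 61.4% in queens and 48.6% and 39.2% in workers, highest in queens. It was lower in drones than in queens (FDR 0.00382) and higher in queens than in workers (FDR 0.0175), while its transcripts 2 and 3, each at 0 in at least 1 library, passed no comparison.

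Across the 6 libraries the log2 CPM of TpnT, TpnCI, TpnCIIa and TpnCIIb varied together, with Pearson's r between 0.956 and 0.997 for each pair. Correlations of TpnI with these 4 genes were between 0.814 and 0.928. These are descriptions over 6 points in 3 clusters that share library and phenotype, and have no test. By the same measure, among 4577 genes outside the family with a mean of at least 10 CPM, the genes most like TpnT were LOC100577670 and LOC552738 (r of 1.000 and 0.999), and those most like TpnI were LOC724331 and LOC494509 (0.978 and 0.972). For TpnCI these were LOC100576936 and LOC409001 (both 1.000), for TpnCIIa LOC112935903 and LOC409787 (both 0.999), and for TpnCIIb LOC408532 and SIFR (1.000 and 0.999). For TpnCIIIa, where r rests on few counts, they were LOC410689 and LOC100578925 (0.986 and 0.952). A high r marks the relative spacing of the libraries and not the size of the difference. LOC112935903 had 1.14 and 1.25 CPM in drones, 303 and 278 CPM in queens and 2.70 and 2.81 CPM in workers, whereas SIFR had 302 and 305 CPM in drones, 691 and 666 CPM in queens and 407 and 434 CPM in workers.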

How the data were processed

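RNA-seq libraries of pooled brains were compared between newly-eclosed drones, queens and workers. The authors quantified strand-specific reads with Kallisto and deposited an estimated count, which is not normalized, and a TPM value, scaled to transcript length, for each of 28409 transcripts. The Kallisto version was not given in the sources used here. The files name no genes. By exon coordinates 28232 transcripts were paired with RefSeq genes, and the 177 others, with 7.26% to 10.4% of the counts of a library, were left out.

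The estimated counts of a gene's transcripts were added up and rounded to whole numbers. The filter required 5 or more counts in 3 or more of the 6 libraries (9688 genes kept, 2601 removed). edgeR 4.0.16 (R 4.3.3) fitted a quasi-likelihood model to all 6 libraries with caste as factor and TMM scaling, 3 residual degrees of freedom and a biological coefficient of variation of 14.7%. FDR is the Benjamini-Hochberg adjusted p over all genes or transcripts tested, with a threshold of 0.05. The standard error of a log2 fold change is its size divided by the square root of F. CPM are TMM-scaled. The code was tested on simulated data. Alternatives used DESeq2 1.42.0, limma 3.58.1 on log2(TPM + 1) and log2(TPM + 0.1), other filters and scalings, single transcripts, thinning, and each library left out.

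The members and lists were chosen with earlier results of these data known. Named were all members, their transcripts with at least 10% of the gene's counts in any library, members of a sarcomere list (no symbol of the gene table matched its names), the 2 genes most like each tested member, and neighbours where members adjoin. No sequence is shown, since neither a genome nor sequence tables were used.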

Additional observations from a re-analysis of the deposited data

How the results depend on the processing

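In drones relative to workers, 1 troponin gene was called when the most abundant transcript stood for each gene, against 3, and fewer genes were testable in that setting. The other alternatives kept each count of called genes and transcripts within 1.5 times. Leaving out 1 library gave between 4 and 6 genes in queens relative to workers, 3 in drones relative to workers, 5 to 6 in drones relative to queens and 5 to 6 in the joint test. Without worker replicate 1 the log2 fold change of TpnI in drones relative to workers was −0.00022, and over the libraries left out it ran up to 0.46. TpnCIIIa, near 0 between drones and workers (0.01), turned to −0.16 and −0.80 on TPM values with pseudocounts of 1 and 0.1, −0.015 with only the compared phenotypes, −0.085 with the most abundant transcript, −0.73 without worker replicate 1, −0.050 without queen replicate 2 and −4.57 without drone replicate 1, and was at most 0.94 over the libraries left out. TPM values moved the median of all genes by more than 0.1 on the log2 scale, to −0.28 in drones relative to queens, −0.14 in drones relative to workers and 0.14 in queens relative to workers. There the share of calls that were higher was 16.0%, 25.5% and 73.0%, against 44.9%, 47.0% and 53.5% with TMM, while the sign of the called troponin genes was kept. TpnCIIIa in queens relative to workers passed the test with only the compared phenotypes (FDR 0.0448) and without drone replicate 1 (FDR 0.0448).

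Replicates of the same number did not deviate from their phenotype's mean in the same direction. The correlation of deviations was −0.35 between drones and queens, −0.085 between drones and workers and −0.016 between queens and workers. In drones and queens, replicates of different number thus tended to deviate together, and the source of this was not tested. With a replicate block, 5 genes were called in drones relative to queens, 3 in drones relative to workers, 5 in queens relative to workers and 5 in the joint test. With crossed numbers between drones and queens, added after seeing the data, 6 were called. Depth limits TpnCIIIa, TpnCIIIb and the TpnI transcripts.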
